A study of Mus musculus with 9 samples.

Results

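Keratins are the intermediate filament proteins of epithelial cells. The genes described here are 8 epithelial keratins, chosen by gene name: Krt7, Krt8, Krt18 and Krt19, the keratins of simple (single-layered) epithelia, and Krt5, Krt14, Krt15 and Krt17, keratins of stratified epithelia such as the epidermis. All 8 were found by Ensembl identifier among the 54232 genes of the deposited count table, which held 53 protein-coding keratin genes in all. The samples were wild-type (WT) mouse embryonic stem cells taken through embryoid body differentiation, in which pluripotent cells are grown as aggregates and leave the stem cell state. Polyadenylated RNA was sequenced in 3 libraries for each group, called EBD2, EBD5 and EBD6. The groups share genotype and starting cell type, and their names differ in the label of the differentiation. The sequencing instrument could not be assigned to single libraries, so a difference in sequencing between the groups was not tested. The labels do not say what the number in each name stands for, which stem cell line was used and how the cultures were kept.

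Keratin filaments are built from heterodimers of a type I and a type II keratin, so that a cell needs at least one gene of each type. Krt8 (type II) and Krt18 (type I) form the main pair of simple epithelia and are the earliest keratins of the mouse embryo, where they appear in trophectoderm and later in extraembryonic endoderm. Krt7 (type II) and Krt19 (type I) are added to that pair in ductal, placental and other simple epithelia. Krt5 (type II) pairs with Krt14 or Krt15 (type I) in basal cells of stratified epithelia, and Krt17 (type I) belongs to epidermal appendages and to activated keratinocytes. Filaments are tied to desmosomes by plakin proteins, and through these junctions they link cell to cell.

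Libraries held 5454268 to 11704761 counts. EBD2 replicates 1 and 2 and EBD6 replicates 2 and 3 agree within sampling noise (chi-square per gene 0.949 and 1.01, against 1.21 to 4.31 for the other pairs of a group). Each of these pairs was summed and counted as 1 sample, so group means ± SD rest on 2 samples of EBD2 and of EBD6 (n = 2) and on 3 samples of EBD5 (n = 3). Separate cultures are not named for the replicates. The p-values therefore rest on a spread between samples that may be technical. Levels are in CPM, the counts scaled to a common library size. The 10 markers of pluripotent cells were detected in every group, with summed levels of 2290 to 2550 CPM in EBD2, 1830 to 1880 CPM in EBD5 and 1650 to 1840 CPM in EBD6. The EBD5 libraries stood apart in RNA classes. Their share of counts from rRNA genes was 0.726% to 0.811%, against 0.0165% to 0.0247% in the other libraries, and from mitochondrial rRNA 0.52% to 0.546% against 0.0047% to 0.0168%. Processed pseudogenes took 0.986% to 0.997% in EBD5 against 0.15% to 0.28%, and protein-coding genes 94.8% to 95.2% against 98% to 98.4%. Both steps, EBD2 to EBD5 and EBD5 to EBD6, run through these libraries, and the part of this difference in the keratin values was not tested. In these bulk samples, fewer cells of a type and less RNA per cell cannot be told apart.

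The 8 genes lie in the 2 keratin gene clusters of the mouse (mm10, GENCODE release M21). Krt7, Krt5 and Krt8 are on chromosome 15 in that order, among other type II genes. Krt8 (ENSMUSG00000049382, chromosome 15, 101996698 to 102004482, minus strand) is followed after 23.7 kb, with no protein-coding gene between them, by Krt18 (ENSMUSG00000023043, chromosome 15, 102028180 to 102032027, plus strand), a type I gene placed at the edge of the type II cluster. Krt15, Krt19, Krt14 and Krt17 follow each other on chromosome 11, all on the minus strand, with 4.9 kb between Krt15 and Krt19 (ENSMUSG00000020911, chromosome 11, 100140810 to 100148665). The adjacent genes Krt8 and Krt18 had 7389 and 9645 counts in EBD6, whereas of the adjacent genes Krt19 and Krt15 the former had 3137 and the latter 26.

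Sequences around the RefSeq start sites are shown for the type II and type I genes of the main simple pair and for Krt7. These 3 are the simple keratins on chromosome 15, and all were highest in EBD6. Each line gives 120 bases before to 10 after the RefSeq start (GRCm38.p6), 5′ to 3′ on the gene's strand, with capitals for matches to any of 5 motifs.
Krt8: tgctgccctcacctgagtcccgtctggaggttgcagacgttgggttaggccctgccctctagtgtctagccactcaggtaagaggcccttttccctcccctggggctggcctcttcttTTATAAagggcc
Krt18: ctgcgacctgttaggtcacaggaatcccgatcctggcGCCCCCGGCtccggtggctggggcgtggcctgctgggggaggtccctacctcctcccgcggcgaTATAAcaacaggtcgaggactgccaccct
Krt7: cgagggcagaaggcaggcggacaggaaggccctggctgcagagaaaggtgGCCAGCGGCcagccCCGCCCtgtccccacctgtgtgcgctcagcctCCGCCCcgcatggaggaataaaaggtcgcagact
They lie at chr15:102004333-102004462 (minus strand), chr15:102028096-102028225 (plus strand) and chr15:101412283-101412412 (plus strand). The motifs were searched on both strands of the window from 250 bases before to 50 after the start, in 32851 RefSeq promoters. A TATA box (TATAA) was found in the Krt8 and Krt18 windows and in 24.9% of all promoters. In Krt8 the matches on the 2 strands overlap and lie at the RefSeq start itself. The RefSeq starts lie inside the GENCODE genes, by 140 bases in Krt8, 36 in Krt18 and 1360 in Krt7, so the Krt7 window is not in front of the GENCODE gene. A GC box (GGGCGG), present in 35.7% of promoters, matched 4 times in Krt7 and not in the windows of Krt8 or Krt18. The letters GCCNNNGGC, known as an AP-2 site and present in 16.6% of promoters, matched in Krt18 and Krt7. The AP-1 letters TGANTCA (7.81% of promoters) matched in none of the 3 windows, and the GATA letters AGATAA (11.18%) matched in Krt8, 239 bases before the start. The windows of Krt5 and Krt14 were searched too and held no match to any of the 5 motifs. The RefSeq start of Krt14 lies 1518 bases inside the GENCODE gene, so its window is not in front of that gene either. Krt15, Krt17 and Krt19 had no RefSeq window to search.

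All 4 simple keratins rose from EBD2 to EBD5 and again from EBD5 to EBD6, and Krt18 and Krt8 were the most abundant in every group. Of the 8 genes, these 4 passed the filter on low counts and were tested. In EBD5 against EBD2 all 4 were called higher and 0 lower, where 34.9% of the 16168 genes tested were called higher and 35.1% lower. In EBD6 against EBD5 all 4 were called higher, where 36.9% of all genes were called higher and 33.3% lower. In EBD6 against EBD2 it was again all 4, where 33.8% of all genes were called higher and 32.3% lower. Their median log2 fold change was 2.63, 1.62 and 4.85 in these comparisons, beside -0.01, 0.04 and 0.01 for all genes tested.

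**Figure D1:**
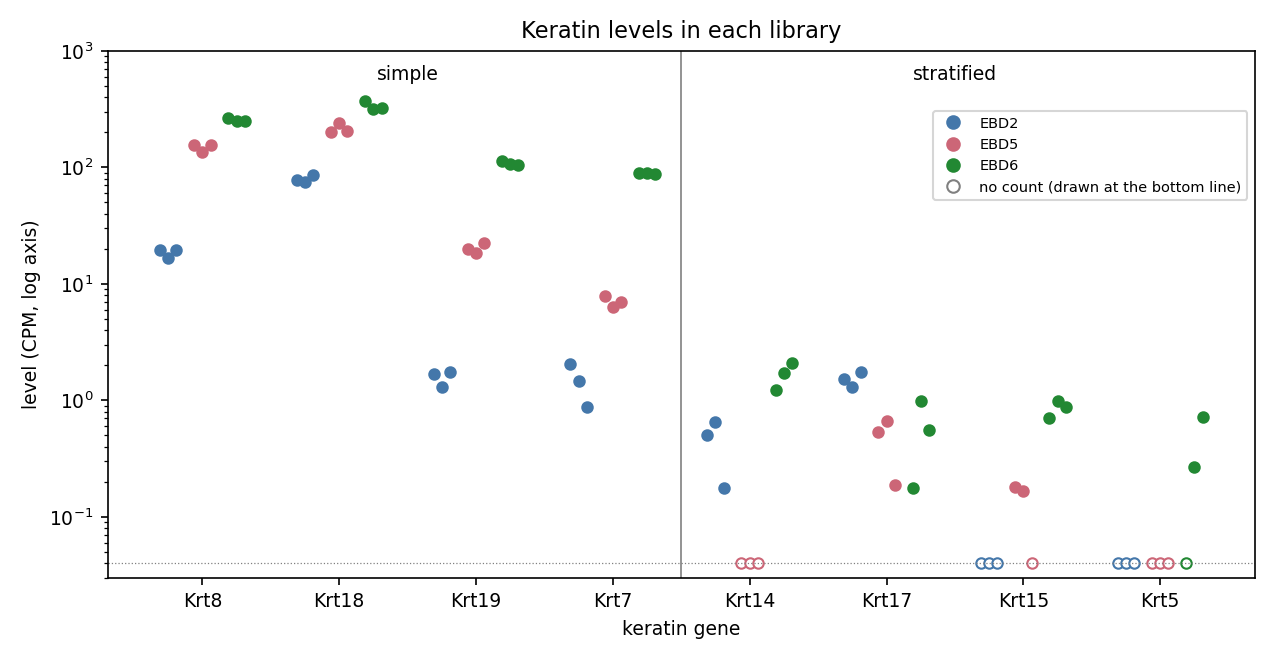
Level of each keratin in each library, in CPM on a log axis, 3 points per group in the order of replicates 1 to 3. Open points on the dotted line had no count. The simple keratins rise from EBD2 to EBD6 (Krt8 from 18.8 to 258 CPM), while no stratified keratin is above 2.09 CPM in any library.

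Krt8, the type II keratin of the main pair, stood at 19.5, 16.6 and 19.6 CPM in EBD2 replicates 1 to 3. It stood at 155, 134 and 154.5 CPM in EBD5, and at 266, 250.2 and 249 CPM in EBD6. The 3 groups did not overlap, and the spread within each was small beside the steps between them. The means were 18.8 ± 1.06, 147.9 ± 12 and 257.6 ± 11.6 CPM. Krt8 was 7.94-fold higher in EBD5 than in EBD2 (log2 2.99 ± 0.10 SE; edgeR quasi-likelihood test with Benjamini-Hochberg adjustment, adjusted p = 1.44e-09). The second step was smaller, 1.74-fold from EBD5 to EBD6 (log2 0.80 ± 0.07 SE; edgeR, adjusted p = 2.19e-06).

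Krt18, the type I partner of Krt8, was the keratin with the highest level in each library. It stood at 78.6, 75.2 and 86.3 CPM in EBD2, 202, 239 and 203 CPM in EBD5, and 371, 317 and 323 CPM in EBD6. The groups did not overlap. From EBD2 to EBD5 it rose 2.65-fold (log2 1.41 ± 0.10 SE; edgeR, adjusted p = 4.7e-07), less than Krt8 did. From EBD5 to EBD6 it was 1.6-fold higher (log2 0.68 ± 0.09 SE; edgeR, adjusted p = 4.79e-05). This second step is the least firm of the 4 genes' changes. After each sample's median in each bin of GC content and length was subtracted, it was log2 0.18 and was not called (edgeR, adjusted p = 0.151), and the step of Krt8 was log2 0.30. GC content of the 8 transcripts was 52.3% to 58.9%, beside a median of 49.5% for the genes tested.

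Krt19, a type I keratin that lacks most of the tail domain, had 10, 8 and 10 counts in the EBD2 libraries, or 1.7, 1.31 and 1.76 CPM. It stood at 19.8, 18.2 and 22.5 CPM in EBD5 and at 112, 108 and 105 CPM in EBD6. It rose in both steps, 12.6-fold and then 5.41-fold (log2 3.65 ± 0.18 SE and 2.44 ± 0.09 SE; edgeR, adjusted p = 2.67e-08 and 9.05e-09). Over the whole range from EBD2 to EBD6 this made 68.1-fold (log2 6.09 ± 0.15 SE). The change of Krt7 over that range, log2 5.92 ± 0.17 SE, was within these errors, and without EBD2 replicate 1 the order was the reverse (6.15 for Krt19 and 6.22 for Krt7).

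Krt7 (ENSMUSG00000023039, chromosome 15, 101411043 to 101430313, plus strand), the type II keratin of ductal and placental epithelia, had its larger step late. It stood at 2.04, 1.47 and 0.88 CPM in EBD2, from 12, 9 and 5 counts. It reached 7.91, 6.35 and 6.99 CPM in EBD5, and 89.7, 88.7 and 87.9 CPM in EBD6. The first step was 4.81-fold (log2 2.27 ± 0.24 SE; edgeR, adjusted p = 8.45e-06) and the second 12.6-fold (log2 3.65 ± 0.12 SE; edgeR, adjusted p = 4.86e-09). Krt7 is thus the only 1 of the 4 whose fold was larger from EBD5 to EBD6 than from EBD2 to EBD5; whether the steps differ was not tested. The antisense gene Gm671, which overlaps the 5′ end of Krt7, had 2 counts in all 9 libraries together.

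**Figure D2:**
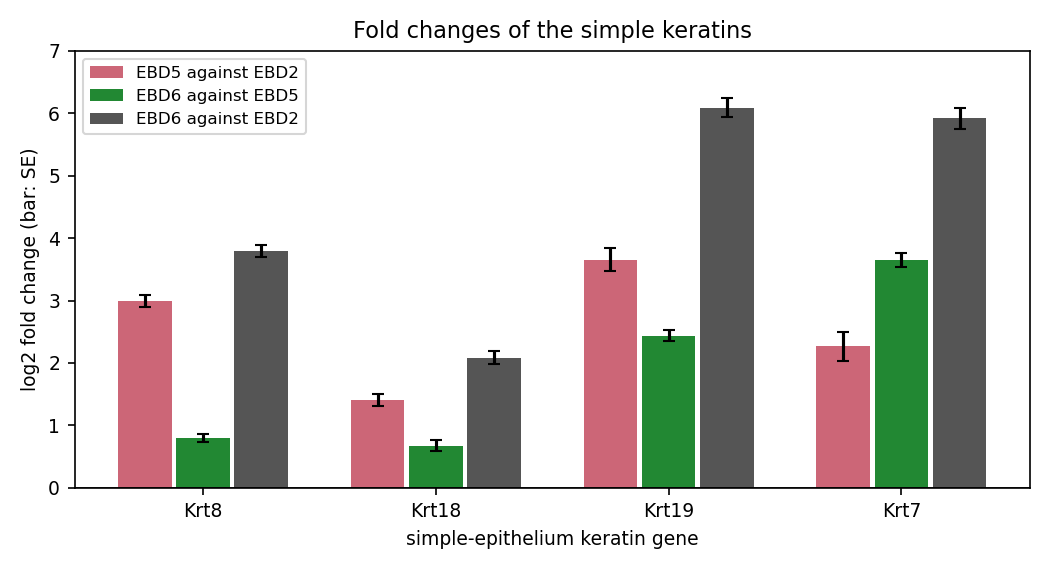
Log2 fold changes of the 4 simple keratins in the 3 comparisons, with SE as error bars. Krt8, Krt18 and Krt19 have the taller bar for EBD5 against EBD2 (2.99, 1.41 and 3.65), Krt7 for EBD6 against EBD5 (3.65).

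The stratified keratins stayed near the limit of detection. A count of 3 over a group, taken as the floor, corresponds to 0.169 CPM in EBD2, 0.178 CPM in EBD5 and 0.103 CPM in EBD6. Folds set at this floor take the counts of the other group as exact, so the counting error of those counts is not covered. The intervals below cover counting error only. None of the 4 passed the filter, so none has a test there.

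Krt14 (ENSMUSG00000045545, chromosome 11, 100203162 to 100207548), the type I keratin of basal keratinocytes, had 3, 4 and 1 counts in EBD2. It had 0 counts in each EBD5 library and 7, 19 and 26 in EBD6. The EBD6 levels were 1.23, 1.71 and 2.09 CPM, above every other library. Against EBD5, set at the floor of 3 counts over the group, the level in EBD6 was 9.98-fold higher. Against EBD2 the ratio in EBD6 was 3.93 (95% counting interval 1.86 to 9.59). At the same floor the EBD5 level was 2.54-fold lower than that of EBD2.

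Krt15 (ENSMUSG00000054146, chromosome 11, 100131758 to 100135928), another type I keratin of basal cells, had no count in EBD2, 2 counts in EBD5, and 4, 11 and 11 counts in EBD6. With EBD2 set at the floor of 3 counts over the group, EBD6 was 5.25-fold higher. The ratio of EBD6 to EBD5 was 7.48 (95% counting interval 1.87 to 65.1). Krt5 (ENSMUSG00000061527, chromosome 15, 101707070 to 101712898), the type II partner of both, had no count in EBD2 or EBD5. In EBD6 it had 0, 3 and 9 counts in replicates 1 to 3, so its signal came from the near-identical pair that was counted as 1 sample. With 9 of its 12 counts in replicate 3, no fold is given for Krt5.

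Krt17 (ENSMUSG00000035557, chromosome 11, 100256217 to 100261029) went the other way. It had 9, 8 and 10 counts in EBD2, 3, 4 and 1 in EBD5, and 1, 11 and 7 in EBD6. The EBD2 levels of 1.53, 1.31 and 1.76 CPM were above all others, and EBD5 and EBD6 overlapped. EBD2 exceeded EBD5 by a ratio of 3.21 (95% counting interval 1.42 to 8.18) and EBD6 by 2.35 (1.26 to 4.47). Between EBD6 and EBD5 the ratio was 1.37, with an interval of 0.572 to 3.61 that spans no difference.

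Without the filter stratified keratins were called too. In EBD5 against EBD2 4 of the 8 members were then called higher and 2 lower, where 19.6% of 33137 genes were called higher and 19.8% lower. The 2 lower members were Krt14 and Krt17 (edgeR, adjusted p = 0.00349 and 0.00976). In EBD6 against EBD5 7 members were called higher and 0 lower, where 21.6% of genes were called higher and 16.7% lower. Krt14, Krt15 and Krt5 were among the 7 (edgeR, adjusted p = 6.08e-10, 0.00503 and 0.0241). Krt5 had no count in EBD6 replicate 1, so its call rests on the summed pair of replicates 2 and 3 alone. In EBD6 against EBD2 7 were called higher and 1, Krt17, lower, where 20.3% of genes were called higher and 16.6% lower. These calls rest on 0 to 52 counts a group, and that fit gave every gene the same spread around the fitted trend. Krt14 and Krt17 are 89.1% identical over 957 aligned bases, with identical runs of up to 71 bases, and Krt16, with 6 counts in all, is 87% identical to Krt14. The split of reads between them is therefore uncertain.

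Per length of the annotated exons, Krt18 was first and Krt8 second in all 9 libraries. Krt18 had 56.8 ± 4.65 CPM per kb in EBD2, 149.5 ± 14.4 in EBD5 and 240.3 ± 24.97 in EBD6. Krt8 had 9.6 ± 0.542, 75.5 ± 6.13 and 131.6 ± 5.92 CPM per kb. In EBD2, Krt17 (1.02 ± 0.158 CPM per kb) and Krt19 (0.878 ± 0.101) came next, and these neighbours did not differ beyond their spread. Krt14 (0.216 ± 0.163) and Krt7 (0.186 ± 0.0869) followed, also within their spread. In EBD5, Krt19 came after this pair at 10.9 ± 1.16 and then Krt7 at 1.005 ± 0.111 CPM per kb. In EBD6 the order was the same, with Krt19 at 58.8 ± 2.35 and Krt7 at 12.6 ± 0.139, and Krt14 next at 0.894 ± 0.272. The annotated exons of Krt7 cover 7.05 kb in all but 4.09 kb in the longest transcript, by which Krt7 stood at 21.7 CPM per kb in EBD6.

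The make-up of the keratin messages changed with these steps. In EBD2 Krt18 made up 82.6 ± 0.512% of the summed level per kb of the 8 genes and Krt8 14 ± 0.27%. In EBD5 the shares were 62.9 ± 4.03% and 31.9 ± 3.52%, and in EBD6 53.9 ± 1.66% and 29.6 ± 0.836%. Krt19 went from 1.28 ± 0.0499% to 4.59 ± 0.596% and 13.2 ± 0.441%, and Krt7 from 0.277 ± 0.147% to 0.425 ± 0.0583% and 2.84 ± 0.177%. The 4 stratified genes together held 1.81 ± 0.144% in EBD2, most of it Krt17, then 0.153 ± 0.0881% in EBD5 and 0.407 ± 0.208% in EBD6. Their summed level was 1.24 ± 0.00508, 0.366 ± 0.215 and 1.78 ± 0.795 CPM per kb. That of the 4 simple genes was 67.4 ± 5.2, 236.9 ± 7.35 and 443.3 ± 33.4 CPM per kb, so the lower share in EBD6 than in EBD2 is not a lower stratified level.

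**Figure D3:**
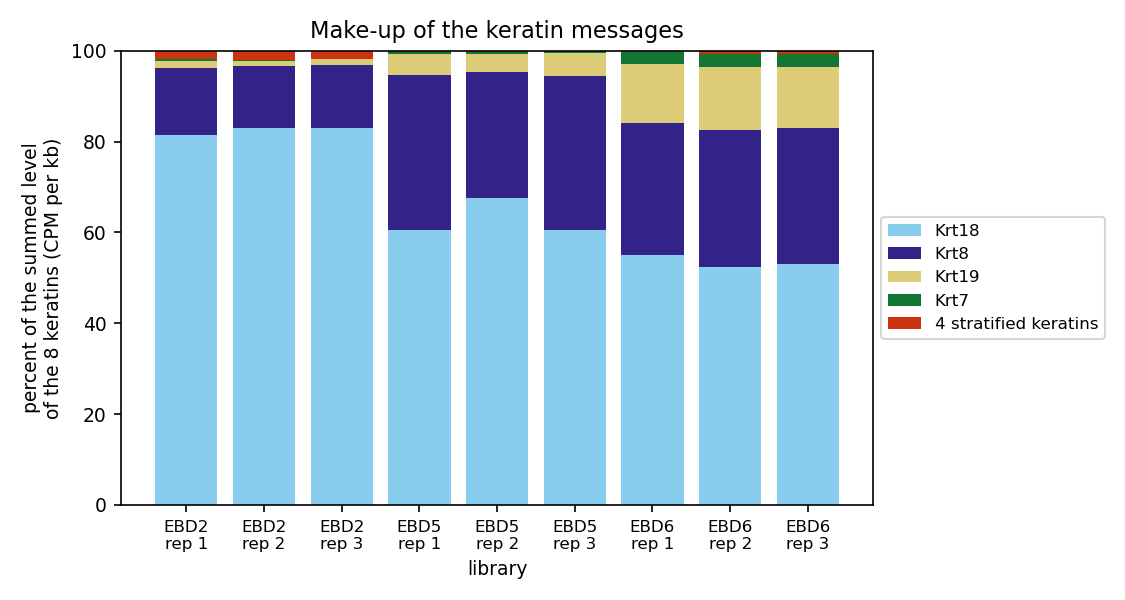
Share of each simple keratin, and of the 4 stratified keratins together, in the summed level of the 8 genes (CPM per kb) in each library. Krt18 holds 81.5% to 83.1% in the EBD2 libraries and 52.3% to 55.1% in the EBD6 libraries, where Krt19 holds 12.9% to 13.8%.

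Within the main pair, the ratio of Krt8 to Krt18 per kb was 0.182, 0.162 and 0.166 in the EBD2 libraries. It was 0.562, 0.412 and 0.557 in EBD5 and 0.526, 0.58 and 0.566 in EBD6. EBD2 lay apart from both other groups, which overlapped each other, and EBD5 replicate 2 was the lowest of those 6 libraries. On the log2 scale the means were -2.56 ± 0.04, -0.98 ± 0.26 and -0.87 ± 0.09. All type II members together against all type I members gave 0.166 ± 0.00568 in EBD2, 0.48 ± 0.0759 in EBD5 and 0.481 ± 0.0231 in EBD6. Type I messages thus exceeded type II messages in every library, by the most in EBD2.

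Reads of Krt8 could also be placed on a copy of the gene elsewhere. Krt8-ps (ENSMUSG00000109325, chromosome 7, 23357125 to 23358069, plus strand) is a processed pseudogene, a retrotransposed copy of the spliced message. Aligned with the Krt8 transcript it differed at 13 of 941 bases, with an identical run of 299 bases. The aligned part is 48.1% of the Krt8 transcript. The 100 coding bases with the most differences, bases 816 to 915 of the Krt8 coding sequence, are shown with the 5 differing bases in capitals. A read that lies wholly in the aligned part can be told apart only where it covers such a base.
Krt8: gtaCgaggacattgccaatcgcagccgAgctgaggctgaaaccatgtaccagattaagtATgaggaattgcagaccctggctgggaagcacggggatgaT
Krt8-ps: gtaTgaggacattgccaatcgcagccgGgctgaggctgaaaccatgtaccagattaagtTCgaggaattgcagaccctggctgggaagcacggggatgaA

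Krt8-ps had 1, 1 and 0 counts in EBD2, 84, 139 and 96 counts in EBD5, and 4, 11 and 11 counts in EBD6. All EBD5 libraries were above all others, and EBD5 replicate 2, lowest in Krt8 among its group, was highest in the pseudogene. The ratio of EBD5 to EBD2 was 168 (95% counting interval 46 to 1390), and EBD6 was 21.1-fold below EBD5 (log2 -4.40 ± 0.30 SE; edgeR, adjusted p = 3.25e-07). The pseudogene took 8.87% to 14.8% of the counts of Krt8 and Krt8-ps together in EBD5 and 0.264% to 0.394% in EBD6. Of 689 processed pseudogenes tested, 551 were higher in EBD5 than in EBD2 and 597 were lower in EBD6 than in EBD5. The part of this class-wide shift in the Krt8 level was not tested beyond summing the counts. With Krt8 and Krt8-ps summed, Krt8 changed by log2 3.15 from EBD2 to EBD5 and by 0.63 from EBD5 to EBD6, in place of 2.99 and 0.80.

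**Figure D4:**
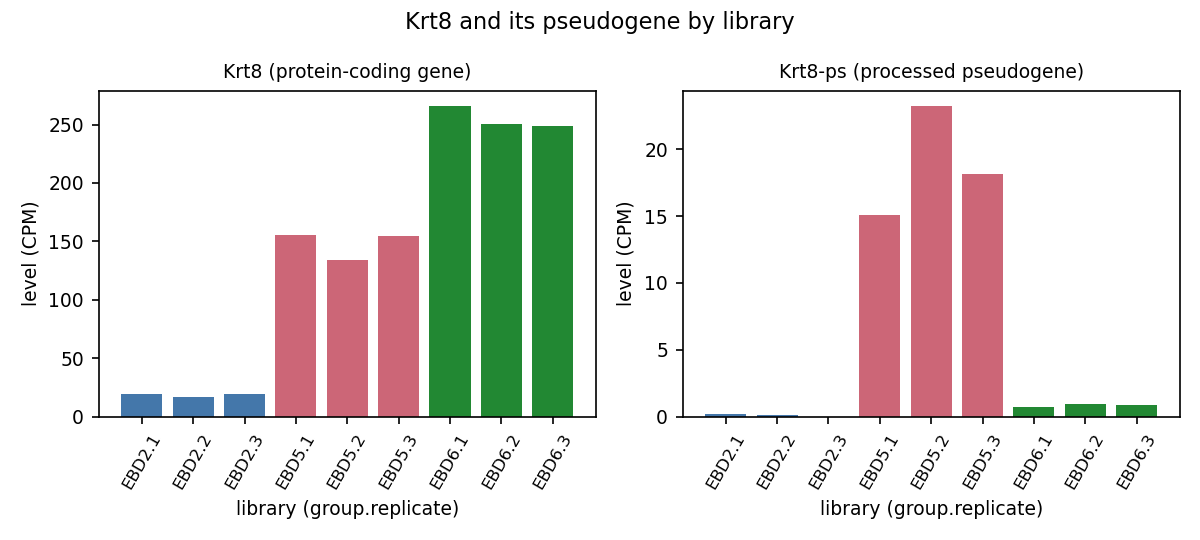
Levels of Krt8 (left) and of its processed pseudogene Krt8-ps (right) in each library, in CPM on separate linear axes, coloured by group. Krt8 is highest in EBD6 (249 to 266 CPM), Krt8-ps in EBD5 (15.1 to 23.2 CPM).

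Of the pseudogenes at least 85% identical to a member over at least 25% of its transcript, Krt18 had 2, Gm5200 and Gm17847. They held 8 and 4 counts in all libraries together, so no such shift was seen for Krt18. The lincRNA gene Gm36026, which overlaps the 5′ end of Krt8 on the other strand, held 20 counts in all.

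The rest of the keratin family was low. Of 45 other protein-coding keratin genes 33 had under 10 counts over all libraries, 14 of them no count at all. The summed level of the 45 was 13 to 16.5 CPM in EBD2, 9.63 to 11.7 in EBD5 and 18.3 to 21.5 in EBD6. The 3 that were tested were Krt10, Krt20 and Krt42. Krt20, a type I keratin of intestinal and urothelial epithelia, had 5.29, 3.15 and 3.77 CPM in EBD6 against 1.98, 1.5 and 1.7 in EBD5. It rose 2.38-fold (log2 1.25 ± 0.33 SE; edgeR, adjusted p = 0.0059). Krt42 was lower in EBD5 (1.94 ± 0.72 CPM) than in EBD2 (3.5 ± 0.464 CPM; log2 -0.86; edgeR, adjusted p = 0.0289) and rose to 4.65 ± 0.154 CPM in EBD6 (edgeR, adjusted p = 0.00287). Krt10, a keratin of differentiating epidermal cells, stood at 4.30 ± 0.855, 4.37 ± 0.793 and 4.27 ± 0.694 CPM and was called in no comparison (edgeR, adjusted p = 0.725 to 0.969).

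The desmosome list, genes of the junctions that anchor keratin filaments, had 8 of 13 members tested. From EBD2 to EBD5 5 rose and 2 fell, with a median log2 change of 0.66 beside -0.01 for all genes, of which 34.9% were called higher and 35.1% lower. Dsc2, a desmosomal cadherin, rose from 3.68 to 81.1 CPM, and Dsp, the plakin desmoplakin that binds the filaments, from 29.0 to 202 CPM. Perp, a desmosome membrane protein, rose from 4.67 to 31.3 CPM and Dsg2, the other main cadherin of simple epithelia, from 67.6 to 119.2 CPM. From EBD5 to EBD6 6 rose and 1 fell, where 36.9% of all genes were called higher and 33.3% lower. Pkp3, a plaque protein, rose from 5.74 to 23.1 CPM and Jup, plakoglobin, from 82 to 208 CPM. Perp rose again, from 31.3 to 78.2 CPM. Pkp3 and Jup were the 2 that had fallen from EBD2 to EBD5. Of the cadherins typical of stratified epithelia, Dsc1 had no count in any library, and Dsg1a had none in EBD2 or EBD5 and 1 in EBD6. Dsg3 had 5, 0 and 1 counts in EBD2, EBD5 and EBD6, and Dsc3 had 4, 0 and 9.

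**Figure D5:**
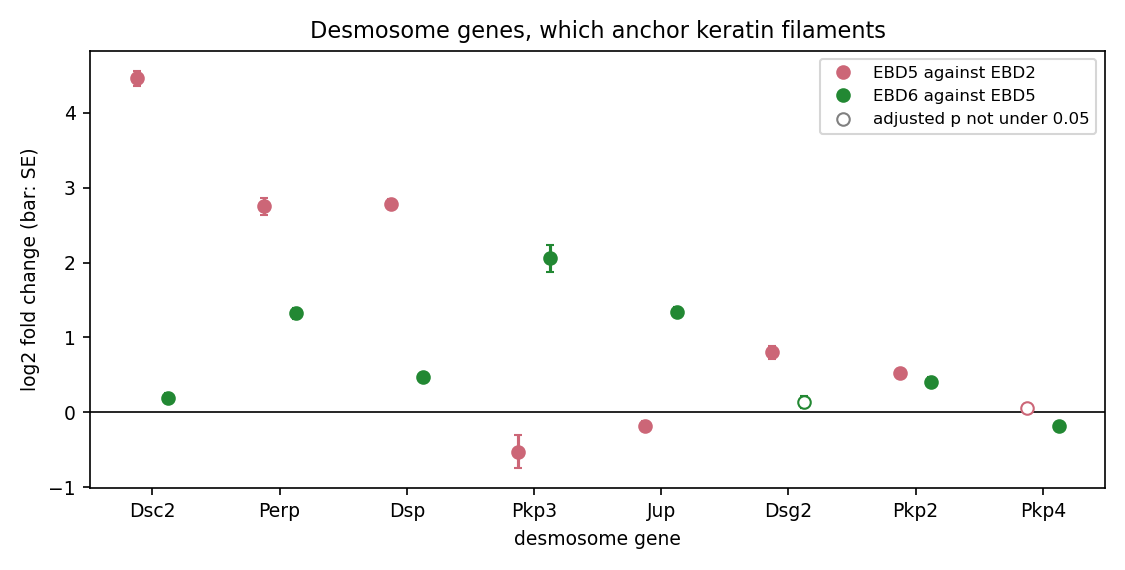
Log2 fold changes of the 8 tested desmosome genes for EBD5 against EBD2 and EBD6 against EBD5, with SE as error bars and open points where the adjusted p was not under 0.05. Dsc2, Perp and Dsp have the largest changes in the first step (4.46, 2.75 and 2.78). Pkp3, Jup and Perp have the largest in the second (2.06, 1.34 and 1.32).

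Of 10 plakin and hemidesmosome genes tested, 2 rose and 3 fell from EBD2 to EBD5, where 34.9% of all genes were called higher and 35.1% lower. From EBD5 to EBD6 4 rose and 3 fell, beside 36.9% and 33.3% of all genes. Plec, which encodes the filament linker plectin, stood at 62.0, 62.2 and 200 CPM in EBD2, EBD5 and EBD6, and the rise to EBD6 was log2 1.69. Itgb4, the integrin chain of hemidesmosomes, fell from 14.9 to 10.6 and rose to 27.7 CPM. Dst, the giant linker dystonin, rose from 732 to 1169 CPM and fell to 358 CPM.

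Of 13 other intermediate filament genes tested, 1 rose and 10 fell from EBD2 to EBD5, where 34.9% of all genes were called higher and 35.1% lower. From EBD5 to EBD6 7 rose and 1 fell, beside 36.9% and 33.3% of all genes. Vim, the vimentin gene of mesenchymal and early embryonic cells, fell from 61.5 to 38.7 CPM and rose to 96.3 CPM. The neurofilament gene Nefl went from 47.5 to 11.5 and 19.4 CPM, and Prph, peripherin, from 45.1 to 5.29 and 7.24 CPM. Lmna, the gene of the nuclear lamins A and C, went from 22.3 to 17.5 CPM and then rose to 94.2 CPM.

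Of 12 transcription factor genes of epithelia tested, 5 rose and 3 fell from EBD2 to EBD5, near the shares over all genes (34.9% higher, 35.1% lower). From EBD5 to EBD6 7 rose and 1 fell, beside 36.9% and 33.3% of all genes. Trp63, the gene of p63, the master factor of stratified epithelia, had no count in EBD2 and stood at 0.305 CPM in EBD5 and 8.36 CPM in EBD6. Trp63 passed the filter through EBD6 alone, so the filter fixed its direction into EBD6. Tfap2a fell from 14.1 to 4.93 CPM and rose to 19.9 CPM, and Elf3 rose from 28.6 in EBD5 to 73.2 CPM in EBD6. Klf5 rose from 66.9 to 143.7 CPM in the first step. Grhl2, a factor of epithelial junction genes, fell from 84.4 to 34.3 CPM in the first step and stood at 33.3 CPM in EBD6. Of the epidermal differentiation list, 5 of 10 were tested. In EBD5 against EBD2 1 of these rose and 1 fell, beside 34.9% and 35.1% of all genes. In EBD6 against EBD5 3 rose and 1 fell, beside 36.9% and 33.3%. In EBD6 against EBD2 3 were higher and 2 lower, beside 33.8% and 32.3%. Sprr1a had no count in EBD2 or EBD5 and stood at 3.79 CPM in EBD6, so it too passed the filter through EBD6 alone. Tgm1, a transglutaminase of the cornified envelope, rose from 3.04 to 14.97 CPM and Sfn from 22.1 to 44.0 CPM. Flg, the filaggrin gene, fell from 3.22 to 1.44 CPM. Tgm3 fell from 3.57 CPM in EBD2 to 1.02 CPM in EBD5 and stood at 1.81 CPM in EBD6. Ivl had no count in EBD2 or EBD5, and every gene of the list had counts in EBD6.

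Marker lists of other cell types changed in different steps. Over all genes, 34.9% were called higher and 35.1% lower from EBD2 to EBD5, and 36.9% and 33.3% from EBD5 to EBD6. Genes with few or no counts in EBD2 and EBD5, such as Prl3d1, Tpbpa, Cdx2, Trp63 and Zic1, passed the filter through EBD6 alone. The filter fixed their direction into EBD6 in the tallies below. The 12 visceral endoderm markers summed to 36 to 38.4 CPM in EBD2, 3360 to 3390 in EBD5 and 1960 to 2090 in EBD6, and all 12 were called higher in EBD5 than in EBD2. From EBD5 to EBD6 6 of them rose and 5 fell. The 12 trophoblast markers summed to 74 to 82.3, 209 to 211 and 356 to 367 CPM. Much of this came from Eomes, with means of 27.65, 132.3 and 65.4 CPM, and Tfap2c, with 38.2, 51.0 and 102.9 CPM. Eomes was the gene of the list that fell from EBD5 to EBD6. Of 11 tested, 7 rose and 2 fell from EBD2 to EBD5, and 10 rose and 1 fell from EBD5 to EBD6. Cdx2, Elf5 and Prl3d1 had no count in EBD2, and Prl3d1 had none in EBD5. The 8 surface ectoderm markers summed to 300 to 319, 382 to 404 and 456 to 476 CPM. Most of this came from Epcam, with means of 238, 233 and 179 CPM, and Cldn6, with 42.9, 135.4 and 177.5 CPM. Tfap2a stood at 14.1, 4.93 and 19.9 CPM, and Dlx3 at 0.69, 1.37 and 32.0 CPM. Of 7 tested, 3 rose and 1 fell in the first step (median log2 -0.03), and 6 rose and 1 fell in the second. Trp63 had no count in EBD2 and Dlx5 none in EBD5. The 11 mesoderm and endothelial markers summed to 192 to 196, 183 to 191 and 373 to 400 CPM. Much of this came from Pecam1, with means of 152, 60.2 and 81.3 CPM, and Gata4, with 10.4, 93.4 and 113.8 CPM. T, Kdr and Cdh5 stood at 2.38, 0.342 and 0.171 CPM in EBD2 and at 26.6, 9.40 and 44.8 CPM in EBD6. Tal1 went the other way, from 9.63 CPM in EBD2 to 1.46 CPM in EBD6. Of 10 tested, 5 rose and 3 fell in the first step, and 8 rose and 0 fell in the second. In EBD6 against EBD2, 8 were higher and 2, Pecam1 and Tal1, lower, beside 33.8% and 32.3% of all genes. The 8 neuroectoderm markers summed to 176 to 194, 96.1 to 101 and 256 to 277 CPM. Of 7 tested, 1 rose and 4 fell in the first step, and all 7 rose in the second (median log2 2.78). The 6 mesothelial and kidney markers summed to 77.7 to 82.4, 49.5 to 56.4 and 58.7 to 72.2 CPM. Of 4 tested, 1 rose and 2 fell in the first step (median log2 -2.19), and 2 rose and 1 fell in the second. The part of each cell type in the keratin levels was not tested.

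The genes with the pattern most like a keratin were found among 11256 protein-coding genes with a mean of at least 10 CPM in any group, by the smallest root mean square difference of centred log2(CPM + 1) over the 7 samples. For Krt7 these were Hand1 (0.22), Gata2 (0.34) and Cdh5 (0.35). For Krt8 they were Ddah1 (0.09), Loxl2 (0.12) and BC025446 (0.12), and for Krt18 they were Nnat (0.10), Zbtb10 (0.11) and Rab3il1 (0.11). For Krt19 they were 3830417A13Rik (0.14), Slco2a1 (0.17) and Rhox6 (0.22). Hand1 stood at 0.981, 4.3 and 67.0 CPM in the 3 groups, beside 1.31, 7.08 and 89.0 CPM for Krt7. Ddah1 stood at 3.9, 37.7 and 70.6 CPM. Such likeness over 3 groups says no more than that the levels changed in similar steps.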

How the data were processed

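The authors deposited RSEM expected counts for each gene, estimates of its reads that may be fractional and carry no scaling for depth or length. The submitters' processing notes name the build mm10 and, without saying what each did, STAR 2.7.10a, RSEM 1.3.30, cutadapt 1.18, DESeq2 1.38.3 and edgeR 3.40.2. Annotation and strand setting: not given in the sources used here. Antisense and overlapping genes may therefore not have been told apart. A second table repeats the 3 EBD6 libraries with identical values in all 54233 rows. The row MR3, which names no gene (at most 0.0157% of a library), was left out.

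Counts were rounded, filtered with filterByExpr (16168 genes left), scaled by TMM and compared by the quasi-likelihood test of edgeR 4.0.16 in R 4.3.3, all groups in one fit, without covariates, 4 residual degrees of freedom, Benjamini-Hochberg over all genes, calls under 0.05. The SE is the log2 fold change divided by the square root of F. Libraries of a group that agree within sampling noise (chi-square over genes with 20 or more counts) were summed. Lengths, positions and GC came from GENCODE M21, which held 99.9% of the IDs; look-alike transcripts came from blastn 2.17.0. Folds against a group without counts put that group at a floor of 3 counts and take the counts of the other group as exact. Count intervals are exact at 95% and cover counting error only.

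The members and gene lists were chosen with earlier results of these data known. Named were all members, tested keratins, up to 4 called genes per list, comparison and direction, markers at 0, the 3 genes most like each tested member, and keratin pseudogenes or overlapping genes. The fit was run on simulated counts of 16168 genes, few of them changed, with the same dispersion for all. It recovered 61.4% to 78.7% of genes changed 1.5-fold and 100% of those changed 4-fold. In each comparison 7 to 13 of 174 to 187 calls were false. Most genes change in the real data and spread may differ by gene, and the simulation did not test the fit under those conditions. Alternatives were DESeq2 1.42.0 and its size factors, limma-voom (limma 3.58.1), other filters, separate libraries, EBD5 replicates 1 and 3 as 1 sample, a replicate block, fewer groups, a fold of 1.5, GC and length bins, each library left out, and, chosen after seeing the data, Krt8 and Krt8-ps summed.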

Additional observations from a re-analysis of the deposited data

How the results depend on the processing

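The 4 tested simple keratins were called higher in all 3 comparisons under every alternative run, with 1 exception: Krt18 from EBD5 to EBD6 was not called against a fold of 1.5 (edgeR, log2 0.68, adjusted p = 0.15) or with GC and length bins removed (log2 0.18, adjusted p = 0.151), and its log2 change ran from 0.18 to 0.75 over all alternatives. Krt8 in that comparison ran from 0.30 to 0.85. Without a filter on low counts 7 members were called in EBD6 against EBD5 and 8 in EBD6 against EBD2, in place of 4, since the stratified keratins were then tested. Tested against a fold of 1.5, 5606, 5317 and 4918 genes were called in EBD5 against EBD2, EBD6 against EBD5 and EBD6 against EBD2, in place of 11319, 11356 and 10685. Leaving out a library, the counts of genes were 10240 to 12111, 10280 to 11596 and 9502 to 11010, and those of members 4 to 6, 4 to 5 and 4 to 5; the counts above 4 came without EBD2 replicate 3 or EBD6 replicate 1, where the filter let stratified keratins through. The same held with EBD5 replicates 1 and 3 as 1 sample (6, 5 and 6 members) and, in EBD6 against EBD2, with only the groups compared (6 members). The log2 ratio of Krt8 to Krt18 in EBD2 was -2.61 to -2.52 with a library left out. Groups share replicate numbers in the labels, with no shared culture stated, and same-numbered libraries correlated by -0.106 to 0.062 in their deviations from the group means. With the replicate number as a block on 9 separate libraries, 4 members were called in each comparison, as without the block. Depth limits the stratified keratins, which had 0 to 52 counts a group.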
